A study of Zea mays with 11 samples.

Results

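Endosperm of the maize inbred line Mo17 collected 11 days after pollination is described here against endosperm collected at 9, 13 and 15 days. Each of these stages is 1 bisulfite sequencing library of dissected tissue, so the comparison sets 1 library against 3 of the 11 in the series. Day 11 was picked from measured values, as the library with the most cytosine calls and the lowest mean CG and CHG levels, and everything below describes that difference with no test. The other libraries, used for gene classes or given beside the results, are whole seed at 3 and 5 days, endosperm at 7, 10, 20 and 25 days, and an ear leaf collected at 13 days. All plants were field grown and self-pollinated, and all libraries come from the same inbred line with no treatment. Nothing in the labels says how many ears or plants went into a library. The SD given for days 9, 13 and 15 is a spread over 3 stages, not over replicates of a stage.

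Plant cytosines are methylated in 3 sequence contexts that are kept by different enzymes. CG methylation is copied after replication by MET1-type methyltransferases, CHG methylation is kept by chromomethylases that bind a methylated histone tail, and CHH methylation (H stands for A, C or T) is placed again in each cycle, largely by an RNA-directed pathway. Maize genes lie among densely methylated transposons, many active genes carry CG methylation alone in the body, and the maternal genome of the endosperm loses methylation at particular sites, among them imprinted genes. A level measured in dissected tissue averages over cells and over maternal and paternal genome copies, so a change in every cell and a change in the mix of cells cannot be told apart.

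The deposited tables gave a count of methylated calls and a level in percent for the body and the upstream region of each of 39656 gene models. They held 223198948 calls at day 11, counted where the methylated count was above 0, against 171984438 at day 9, 151034743 at day 13 and 159449223 at day 15. The next deepest library, whole seed at 5 days, held 195795333 calls. The median number of body CG calls per gene was 521 at day 11 and 312 to 370 at days 9, 13 and 15. As a check of the tissue label, fie1, a Polycomb gene expressed from its hypomethylated maternal copy in endosperm, had a body CG level of 33.1% at day 11 (95% Wilson interval 29.3 to 37.1%, 544 calls). Days 9, 13 and 15 had 27.6, 40.6 and 50.3%, against 84.1% in the leaf and 84.2 and 77.2% in whole seed at 3 and 5 days. The day 11 library thus had the low fie1 level shared by the other endosperm libraries. Chloroplast gene models, which serve as a measure of incomplete conversion, had a body CHH level of 0.817% at day 11 against 0.798, 0.719 and 0.713% at days 9, 13 and 15. Their body CG level was 1.97% at day 11 and 2.09 to 2.48% at the other 3 stages. Intervals throughout cover counting error only.

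Mean levels over the same nuclear genes were lowest at day 11 among the 4 libraries in each context, in both regions. Upstream of 36078 genes the mean CHG level of day 11 was 42.2%, where days 9, 13 and 15 had 48.6, 45.3 and 47.2%. The difference of day 11 from the mean of days 9, 13 and 15 was -4.80 percentage points, beside an SD over those stages of 1.65. The upstream CG level was 58.7, 56.4, 60.8 and 60.9% in the same order of days, a difference of -3.77 points beside an SD of 1.27. Upstream CHH levels were 3.80, 3.47, 4.07 and 4.85%, a difference of -0.777 points beside an SD of 0.544. The 3 upstream contexts therefore had their lowest value at day 11, with day 13 nearest in CHG and day 9 nearest in CG and CHH.

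In gene bodies the mean CG levels of days 9, 11, 13 and 15 were 29.1, 28.3, 30.4 and 30.3%, a difference of -1.59 points beside an SD of 0.724. Body CHG levels were 19.2, 16.7, 18.4 and 18.9%, a difference of -2.12 points beside an SD of 0.409. The body CHH means were 1.54, 1.44, 1.46 and 1.60%, with day 11 and day 13 almost equal, and the difference was -0.0956 points. This direction depended on the summary: the median gene had a body CHH level of 1.12% at day 11 against 1.13, 0.960 and 1.02% at days 9, 13 and 15, a difference of 0.0828 points. With calls summed over genes in place of an equal weight per gene, the body CG difference was -7.26 points and the body CHG difference -7.86 points. The share of calls that came from densely methylated genes, which enters this summary, also differed at day 11 and is given below.

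**Figure D1:**
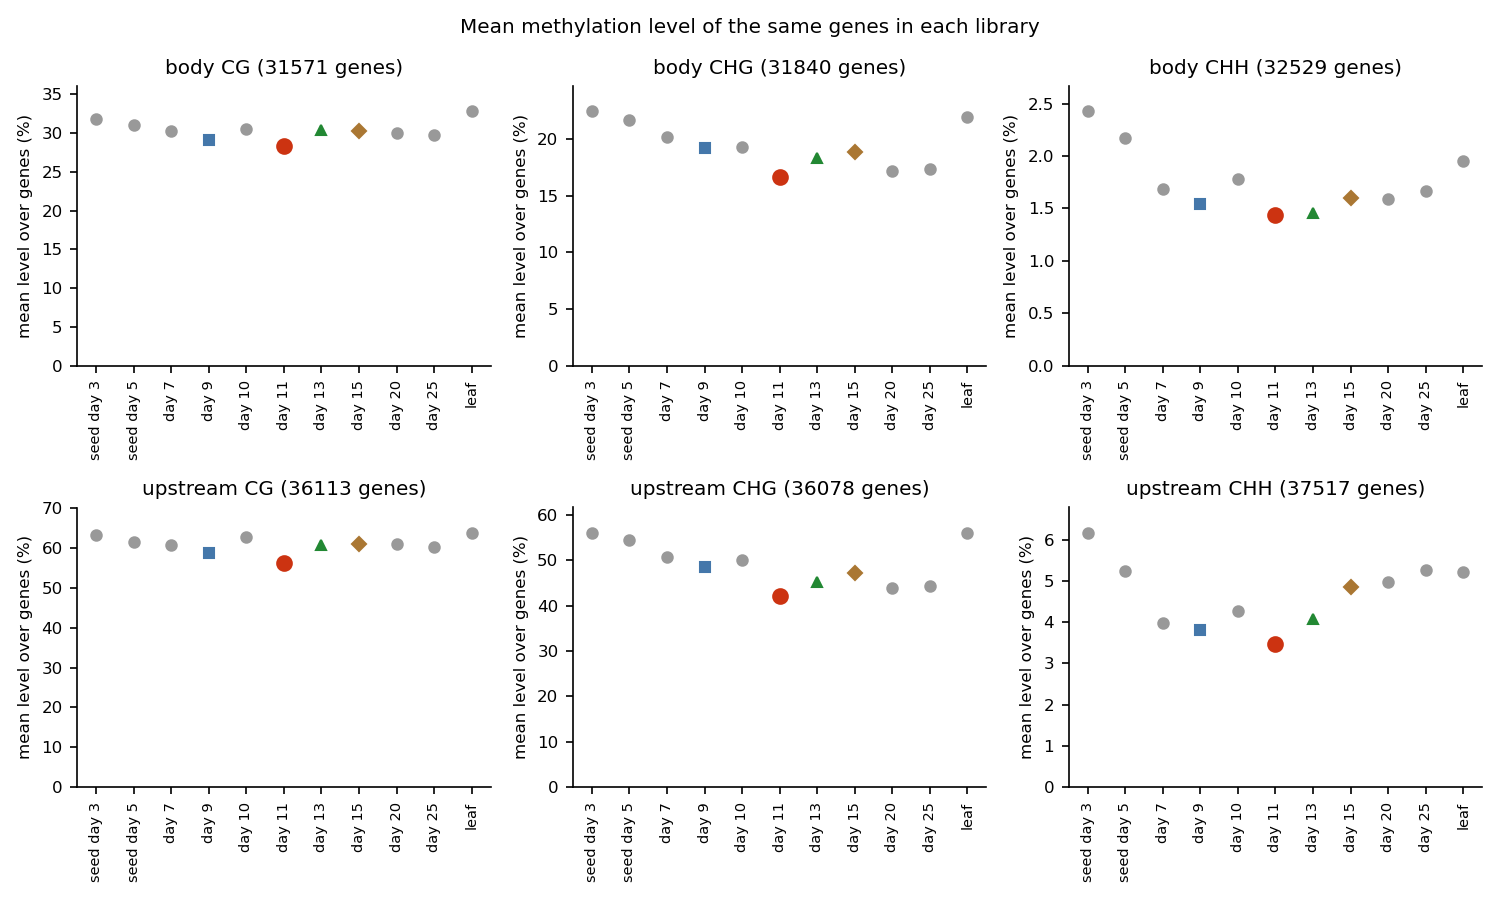
Each panel plots the mean methylation level over genes (y axis, percent) of each of the 11 libraries (x axis) for 1 region and context, with day 11 in red and days 9, 13 and 15 as a blue square, a green triangle and a brown diamond; every point is 1 library with no replicate. Day 11 is the lowest endosperm point in each panel, at 56.4% for upstream CG where the next lowest endosperm library has 58.7%, and at 42.2% for upstream CHG where the next lowest has 44.0%.

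The day 11 means were also below those of the 4 endosperm libraries outside the comparison. For the median gene this held upstream but not in bodies, where days 20 and 25 were lower, with 12.5 and 12.7% against 12.8% at day 11 in CG, 2.94 and 3.05% against 3.12% in CHG, and 0.980 and 1.02% against 1.12% in CHH. The day 10 library, collected 1 day earlier, had an upstream CG mean of 62.8% and an upstream CHG mean of 50.0%, and day 7 had 60.7 and 50.8%. Late endosperm came close to day 11 in CHG only: upstream CHG was 44.0% at day 20 and 44.3% at day 25, with upstream CG at 61.1 and 60.2%. The plot of mean levels by library shows the late stages low in CHG and the day 11 library low in CG and CHG together.

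In upstream CG and CHG the lower level was spread over many genes rather than carried by a few. Day 11 was the lowest of the 4 libraries for 46.3% of genes in upstream CHG and the highest for 7.91%. In upstream CG it was lowest for 42.2% and highest for 10.8% of genes, and in upstream CHH for 30.0 and 15.9%. Body CHG had day 11 lowest for 32.3% and highest for 16.6% of genes, and body CG for 28.9 and 19.5%. The next largest share of lowest genes was 25.3% for day 13 in body CHG and 24.9% for day 9 in body CG. The median gene differed by -0.566 points in body CHG and -0.417 points in body CG, so in bodies the lower mean was less evenly spread. Body CHH went the other way, with day 11 lowest for 18.6% and highest for 25.5% of genes. The median gene differed by -4.22 points in upstream CHG, with quartiles of -9.07 and -0.251 points, and by -3.09 points in upstream CG, with quartiles of -7.84 and 0.573.

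Single genes were called by size and counting error. A gene counted as lower at day 11 where its level was under each of the 3 others, at least 10 points (CG, CHG) or 2 points (CHH) under their mean, and its 95% Wilson interval overlapped none of theirs. The mirror image defined higher. Upstream, 2200 genes were lower in CG (6.09% of 36113 genes) and 201 higher (0.557%), 2346 were lower in CHG (6.5% of 36078) and 57 higher (0.158%), and 1317 were lower in CHH (3.51% of 37517) and 216 higher (0.576%). In gene bodies, 1048 were lower in CG (3.32% of 31571) and 240 higher (0.76%), 1172 were lower in CHG (3.68% of 31840) and 24 higher (0.0754%), and 210 were lower in CHH (0.646% of 32529) and 80 higher (0.246%). The library was chosen for its low CG and CHG means, so the direction of these counts is a description and not a result. When every library was multiplied to the same mean, the counts of lower and higher genes became 1114 and 730 in upstream CG, 680 and 571 in upstream CHG, 696 and 812 in upstream CHH, 585 and 470 in body CG, 340 and 238 in body CHG, then 170 and 111 for body CHH. With the median of each library subtracted they were 678 and 905 in upstream CG, 324 and 573 in upstream CHG, and 1049 and 330 in upstream CHH. In bodies this setting gave 948 and 269 in CG, 1069 and 26 in CHG, and 237 and 72 in CHH. Leaving out day 9 as a comparator raised the lower genes to 1996 in body CG, 1829 in body CHG, 511 in body CHH, 4040 in upstream CG and 3120 in upstream CHH. Leaving out day 13 raised them to 425 in body CHH, 4237 in upstream CHG and 2385 in upstream CHH, and a gene then has fewer libraries to stand apart from. The higher genes, in the order body CG, CHG and CHH and upstream CG, CHG and CHH, numbered 407, 70, 128, 391, 218 and 385 without day 9, 471, 50, 120, 436, 109 and 395 without day 13, and 473, 65, 139, 430, 138 and 611 without day 15.

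Of the 39475 nuclear gene models, not all of them measured, 6367 were lower in at least 1 of the 6 measures, 778 were higher in at least 1, and 85 were both. Per measure, 0.646 to 6.5% of the genes measured were lower and 0.0754 to 0.76% were higher. Most of the lower genes, 4717, were lower in 1 measure, 1408 in 2, 214 in 3, 22 in 4 and 6 in 5. The CG and CHG contexts shared genes within a region, with each gene read from the same 4 libraries. Upstream, 889 genes were lower in both CG and CHG, which is 40.7% of the CG genes and 38.1% of the CHG genes measured in both. In bodies 374 were lower in both, 35.9% of the CG genes and 32.2% of the CHG genes. Between the body and the upstream region of the same gene 92 genes were shared in CG, 9.22% of the body genes and 4.83% of the upstream genes. Over all genes measured, 6.09% were lower in upstream CG, 6.5% in upstream CHG, 3.32% in body CG and 3.68% in body CHG. The CG shares between body and upstream region were thus above those of all genes, 9.22 against 6.09% and 4.83 against 3.32%. In CHG 90 genes were shared, 8.05% of the body genes and 4.28% of the upstream genes, against 6.5 and 3.68% of all genes. These shares were smaller than those between CG and CHG within a region.

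Gene classes were set from the leaf, a library outside the comparison. Bodies with dense methylation (heavy), defined by a leaf CG level of at least 60% and a CHG level of at least 40%, numbered 6699 and had CG levels of 79.4, 77.1, 82.1 and 82.3% at days 9, 11, 13 and 15, a difference of -4.15 points. Their CHG levels were 64.1, 56.2, 60.4 and 62.2%, a difference of -5.99 points. Bodies with CG methylation alone, with a leaf CG level of at least 20% and CHG under 5%, numbered 3305 and had CG levels of 30.1, 30.5, 31.9 and 31.8%. In that class day 11 lay above day 9, and the difference was -0.733 points. Bodies with under 5% CG in the leaf, 11343 in number, had 2.17, 2.22, 2.20 and 2.16%, with day 11 the highest of the 4. In CHG, the bodies with CG alone had 3.26, 2.95, 3.39 and 3.39%, lowest at day 11 with 88.1% of the comparator level, against 90.4% in densely methylated bodies, and the bodies with low CG had 2.13, 2.01, 1.98 and 1.97%. Densely methylated bodies thus had their lowest level at day 11 in both contexts, bodies with CG alone in CHG but not in CG, and bodies with low CG in neither. The 10041 bodies in none of these classes were also lowest at day 11 in both contexts. They had 24.9, 23.9, 26.5 and 26.2% in CG and 12.2, 10.1, 12.5 and 12.8% in CHG. In CHG this was 80.8% of the comparator level. Of them 496 (4.94%) were called lower in body CG, against 426 (6.36%) of the densely methylated bodies and 3.32% of all genes.

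Upstream regions with dense methylation, 21576 by the same limits, had CG levels of 76.9, 74.5, 79.3 and 79.5% at days 9, 11, 13 and 15, a difference of -4.03 points. Their CHG levels were 65.0, 57.1, 60.1 and 62.6%, a difference of -5.42 points. The 709 upstream regions with CG alone had CG levels of 35.1, 35.5, 37.9 and 38.2%, again with day 11 above day 9, but CHG levels of 4.54, 3.92, 4.81 and 4.68%, lowest at day 11. The 1655 upstream regions with low CG were lowest at day 11 in both contexts, with 5.60, 5.27, 5.86 and 5.92% in CG and 5.71, 4.87, 5.60 and 5.89% in CHG. The 11650 upstream regions in none of these classes were lowest at day 11 too. They had 33.5, 30.9, 35.5 and 35.4% in CG and 26.5, 21.9, 25.6 and 26.7% in CHG. In CHG day 11 had 83.4% of the comparator level there, against 91.3% in densely methylated upstream regions.

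Genes that endosperm methylates less than leaf were set from the leaf and the 7-day library. Those with a leaf CG level of at least 60% and a day 7 level at least 20 points under it were called endosperm-lowered, and those within 10 points endosperm-kept. The 1647 endosperm-lowered upstream regions had CG levels of 58.2, 54.1, 61.2 and 61.1% at days 9, 11, 13 and 15, a difference of -6.06 points, against -3.71 points for the 16471 kept regions. In CHG the differences were -6.65 and -5.22 points. The 806 endosperm-lowered bodies had CG levels of 54.9, 50.8, 57.6 and 56.9%, a difference of -5.65 points, against -3.66 points in the 5852 kept bodies. In CHG the lowered and kept bodies differed by -5.94 and -5.49 points, with 8.31 and 10.7% of them called lower. The classes also differed in level, with comparator means of 56.5 and 82.4% in body CG. Both classes therefore had their lowest level at day 11 in CG and CHG, and no test compared the classes.

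**Figure D2:**
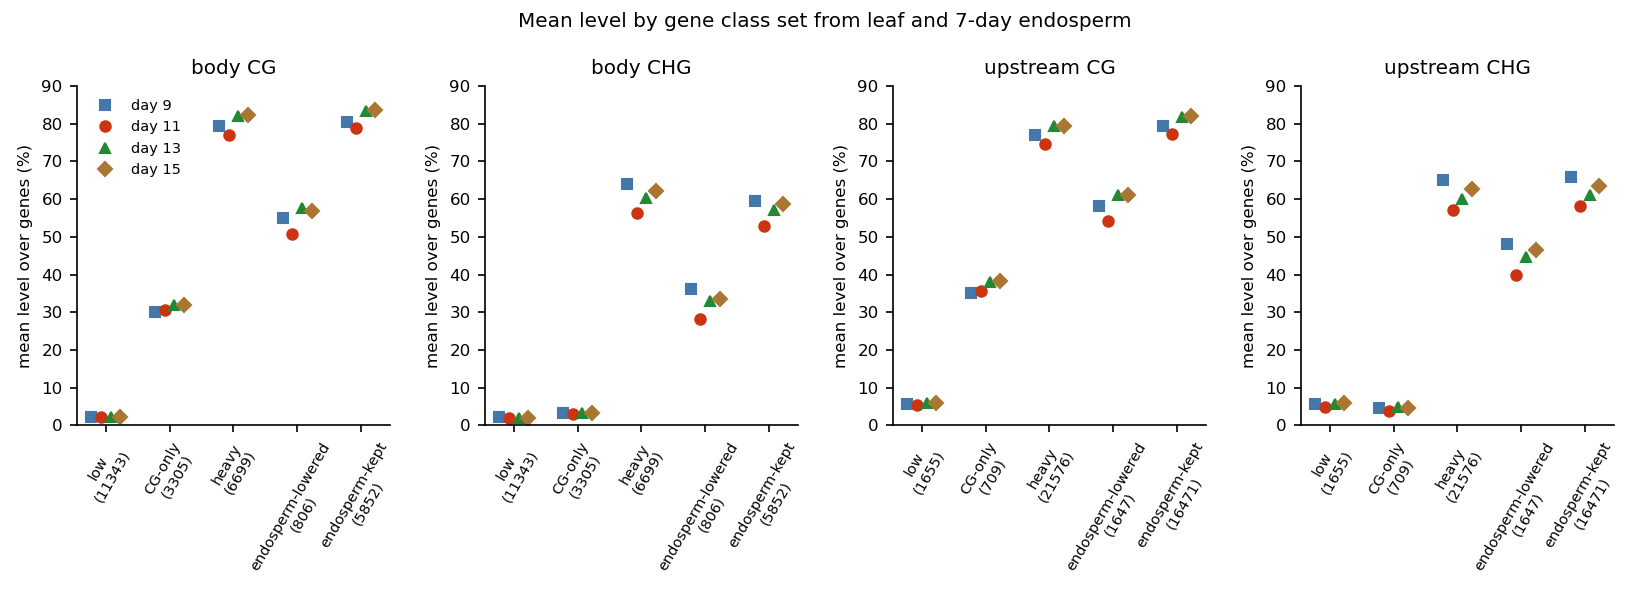
The panels show the mean level over genes (y axis, percent) at days 9, 11, 13 and 15 for gene classes set from leaf and day 7 levels (x axis, number of genes in brackets), each point being 1 library. Day 11 is the lowest point in the heavy, endosperm-lowered and endosperm-kept classes, at 77.1% in heavy body CG, and in the CG panels it lies above day 9 in the CG-only class, at 30.5% in body CG.

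Across deciles of genes ranked by leaf level, the difference was largest in points at intermediate levels. In upstream CG it was -0.960 points in the lowest decile, -5.55 points in the fourth decile and -3.26 points in the highest. In upstream CHG it was -0.807 points in the lowest, -6.43 points in the fifth and -5.04 points in the highest decile. Relative to the mean of days 9, 13 and 15, day 11 kept 80.4% of the level in the second upstream CHG decile and 92.9% in the highest. Upstream CHH differed most where the leaf level was highest, with -2.77 points in the top decile against -0.169 in the lowest. Body CHH had both signs: it was higher at day 11 by 0.0945 points in the third decile, and the top decile differed by -1.04 points, with 3.24% at day 11 against 3.81 to 4.85% in the other 3 libraries. Where gene bodies have almost no CHH methylation, the day 11 values lay on the same side of days 13 and 15 as the chloroplast CHH levels given above, and the part of conversion in this was not tested.

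**Figure D3:**
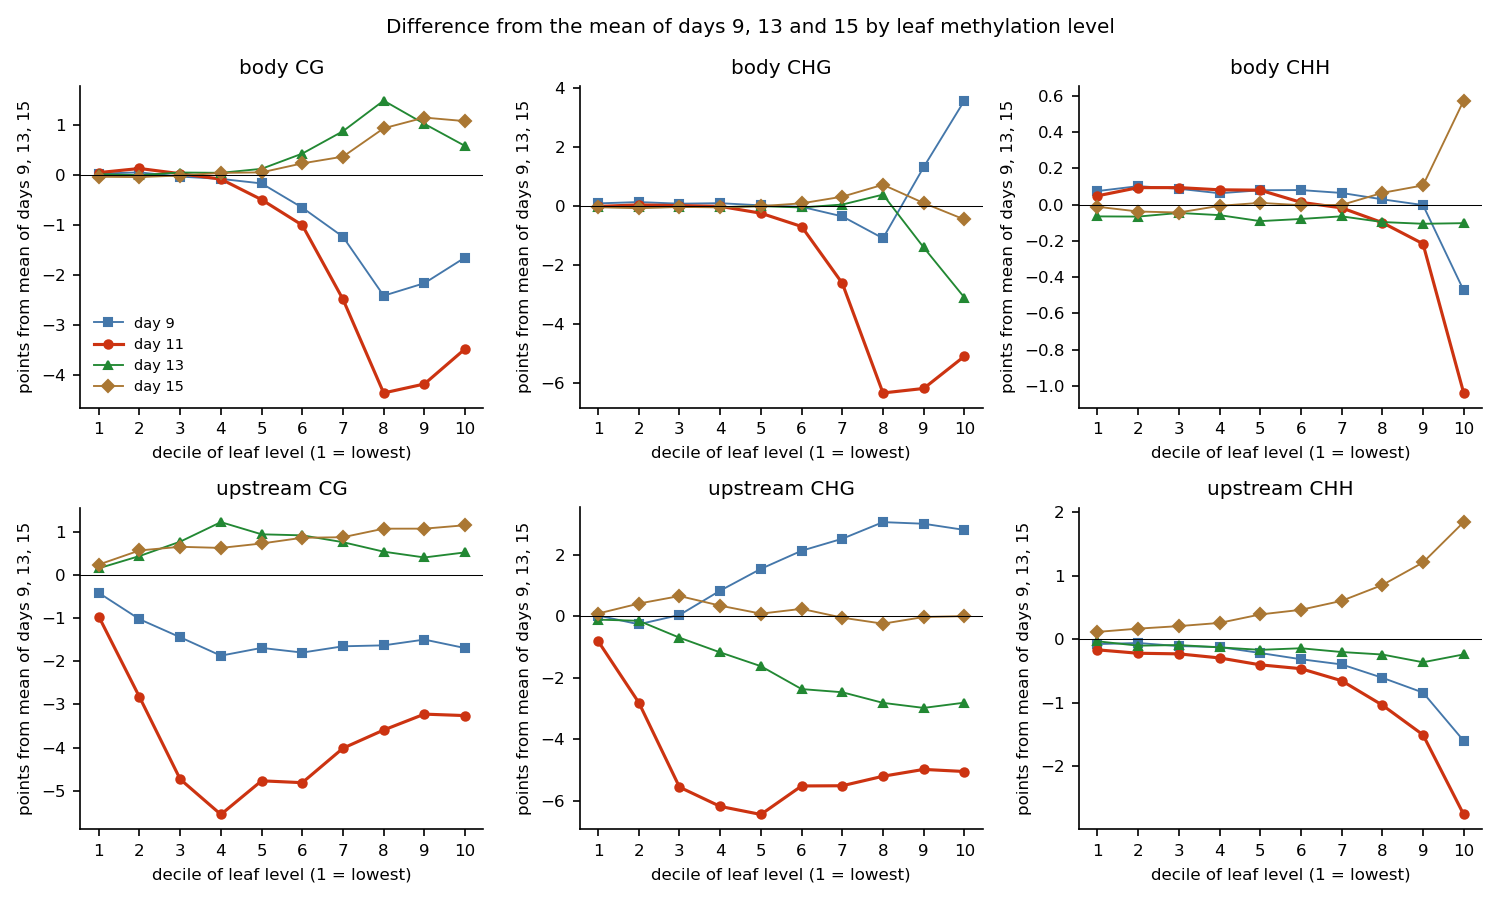
Each panel plots the difference from the mean of days 9, 13 and 15 (y axis, percentage points) for day 9, day 11, day 13 and day 15 across deciles of leaf level (x axis, 1 lowest); each point is a mean over the genes of a decile in 1 library. The red day 11 line lies lowest over all upstream CG deciles and reaches -5.55 points in the fourth, while in body CHH it is above 0 in low deciles and at -1.04 points in the tenth.

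Read depth did not differ evenly between these classes. In bodies with dense methylation, day 11 had 1.20 times as many CG calls per gene as the mean of days 9, 13 and 15, against 1.58 times in bodies with under 5% CG and 1.64 times in bodies with CG alone. Densely methylated bodies held 37.1% of all body CG calls at day 11 and 41.4 to 45.5% in the other 3 libraries. Library composition thus moved with the comparison, and its part in the lower levels was not tested. A split of genes by relative calls is given as a description. With 1 library at day 11 it cannot separate composition from stage. Within densely methylated bodies the CG difference was -4.15, -4.00, -4.04 and -4.41 points in the 4 quartiles of calls relative to the other days, from genes with 0.907 times to genes with 1.61 times as many calls. Upstream the 4 CG values were -4.22, -3.84, -4.07 and -4.02 points. Densely methylated bodies split by their CHG calls differed in CHG by -5.58, -6.23, -6.20 and -5.94 points. Split by their CHH calls they differed in CHH by -0.0425, -0.0687, -0.130 and -0.230 points, so the CHH difference grew with relative depth. In bodies with CG alone the CG values were 1.43, -0.511, -0.976 and -2.87 points, so that the sign changed with relative depth. The relative depth quartiles were chosen after seeing the data.

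**Figure D4:**
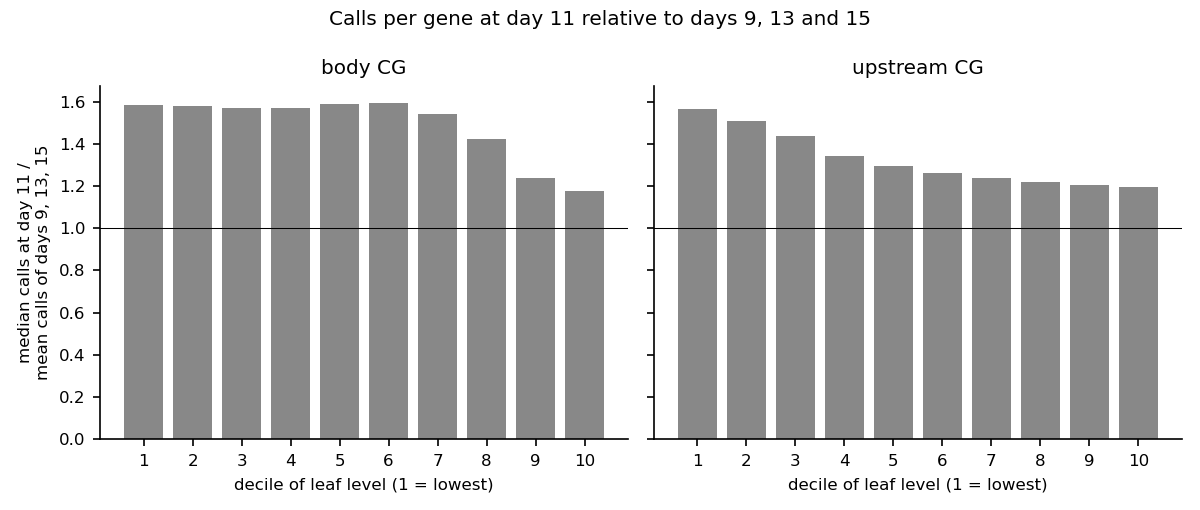
Bars give the median over genes of the calls at day 11 divided by the mean calls of days 9, 13 and 15 (y axis, ratio) for deciles of leaf CG level (x axis, 1 lowest), in gene bodies and upstream regions. The ratio is 1.59 in the lowest body decile and 1.18 in the highest, and upstream it goes from 1.57 to 1.20.

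In body CG, upstream CG and upstream CHG the lower level was found on every chromosome. Over chromosomes 1 to 10 the difference ran from -1.67 to -1.38 points in body CG, from -3.93 to -3.58 in upstream CG and from -5.11 to -4.55 in upstream CHG, and day 11 was the lowest of the 4 libraries on each. Body CHH was lower at day 13 than at day 11 on chromosomes 3, 7 and 9. By gene density, the upstream CG difference was -3.52 points in the quartile of genes with the fewest gene models within 500 kb and -3.74 points in the quartile with the most. The upstream CHH difference was -0.613 points in the sparsest and -0.941 in the densest quartile, with 2.73 and 4.32% of genes called lower. In bodies the difference varied more with length than upstream. The longest quartile of genes had CG levels of 47.6, 46.3, 50.0 and 49.9% at days 9, 11, 13 and 15, a difference of -2.89 points, against -1.28 points in the shortest quartile. The longest quartile also had the highest level of the 4, and 6.59% of it was called lower in body CG against 1.89% of the shortest. Lower genes lay beside each other at times: of the 2197 placed genes lower in upstream CG, 17.5% had a neighbouring gene model that was also lower, against 11.2% of all genes measured. In upstream CHH the shares were 18.8 and 6.66%. Upstream regions of adjacent genes can hold the same cytosines.

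Genes called lower at day 11 had higher mean levels at the other endosperm stages. Those lower in upstream CHG had a mean level of 39.1% at day 11, 56.0, 55.9 and 56.2% at days 9, 13 and 15, and 55.9, 53.4, 49.6 and 49.7% at days 7, 10, 20 and 25. Those lower in upstream CG had 47.4% at day 11 and 61.3 to 62.8% at days 7, 10, 20 and 25. In upstream CHH they had 4.91% at day 11, 8.41 and 8.17% at days 7 and 10, and 11.0 and 11.8% at days 20 and 25. The endosperm days outside the comparison therefore lay above day 11 and under the mean of the comparators in CHG and CG. Days 9, 11, 13 and 15 chose these genes, so the gap between them is not a result. A library that took no part in the choice can lie between day 11 and the comparators from the choice alone. The place of days 7, 10, 20 and 25 is therefore a description too.

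The 10 lists of genes with known roles were read against all genes. Symbols tied 19 gene models to starch synthesis, the process named in the title of the series. Of the 18 measured upstream, 13 had a lower CHG level at day 11 than the mean of the other days and 1 was called lower. Over all genes measured, 76.8% lay under that mean and 6.5% were called lower, so neither count of the starch list exceeded the background. The list median was -2.48 points against -4.22 over all genes, and 3.28 points, the other sign, with libraries scaled to the same mean. Without day 15 it was -0.956 points. The called gene was du1, which encodes starch synthase III and lies on chromosome 10 at 59506710 to 59518288 in the coordinates of the deposited tables, which name no genome build. Its upstream CHG levels at days 9, 13 and 15 were 68.3, 60.7 and 65.9%, and day 11 had 48.9% (95% Wilson interval 45.9 to 51.8%, 1101 calls). Day 11 was also under the 69.8, 70.6, 58.3 and 59.3% of days 7, 10, 20 and 25, so du1 had its lowest endosperm level in that library.

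Of the genes for starch branching enzymes, which add the branch points of amylopectin, an sbe1 model and sbe3 were called lower, each in 1 body context. The other sbe1 model and an ae1 model (GRMZM2G032628), also a branching enzyme gene, were called in no measure. The called model with the symbol sbe1 (GRMZM2G088737) had body CG levels of 58.7, 44.7, 64.2 and 71.7% at days 9, 11, 13 and 15, with 262 calls and an interval of 38.8 to 50.7% at day 11. It lies on the minus strand of chromosome 5 at 63325381 to 63329467. The other sbe1 model (GRMZM2G088753) is on the same strand at 63317874 to 63324803. The called body is therefore directly upstream of the other model and can hold part of its upstream region. The body CHG level of sbe3 was 34.7, 14.4, 30.9 and 29.4%, with 540 calls and an interval of 11.7 to 17.7%. Day 11 was the lowest endosperm value of both, but sbe3 had 11.8% in whole seed at 3 days and 17.9% in leaf, so its day 11 level lay within the range of the other tissues. Within the starch list 12 of 19 bodies were under the mean of the other days in CG and 15 of 19 in CHG, where 58.4 and 63.1% of all genes were. These 2 were the list's called bodies in CG and CHG, and no listed starch gene was called in CHH or upstream CG.

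Storage protein genes and their regulators had a median upstream CHG difference of -6.46 points, with 14 of 15 measured members under the mean of the other days, where 76.8% of all genes were, and 3 called lower, where 6.5% of all genes were. Scaled to the same mean the median was -2.15 points. In body CG 7 of 15 measured members were under the mean of the other days, where 58.4% of all genes were. The median there was 0.229 points, against -0.417 over all genes. The regulator o2 (Opaque2), a bZIP factor that activates zein genes, lies on chromosome 7 at 10793341 to 10796233. Its upstream CHG levels at days 9, 13 and 15 were 55.6, 43.6 and 50.0%, and day 11 had 25.0% (interval 18.2 to 33.3%, 124 calls). At days 7, 10, 20 and 25 it was 48.4, 51.9, 43.4 and 41.7%, and in leaf 79.4%, so the day 11 value of o2 was under that of the other endosperm libraries and the leaf. A gene model with the symbol pbf1 (GRMZM2G146267), 1 of 2 with that symbol, encodes a Dof factor that binds the prolamin box of zein promoters. It had 69.6, 52.5, 67.6 and 73.9% upstream, with 373 calls and an interval of 47.5 to 57.6% at day 11. Day 25 came nearest to it, with 56.7%.

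Among the storage proteins themselves, zp27, a gamma zein, had upstream CHH levels of 19.2, 14.6, 21.2 and 24.9% at days 9, 11, 13 and 15. Day 10 had 14.4%, so the day 11 value was shared by the library of the day before. Its upstream CHG level was 42.4, 34.6, 45.9 and 52.3%, and it was the list's other gene called in CHG. Another gamma zein, zp16, had upstream CHH levels of 9.71, 5.59, 10.1 and 11.6%, with 3542 calls at day 11, under the 7.16 and 7.09% of days 7 and 10. The alpha zein gene az22z4 had upstream CG levels of 65.6, 43.4, 58.7 and 57.7%. The zein gene z1C1_2 went the other way in upstream CHH, with 3.98, 18.6, 1.80 and 3.81%. Zein genes have near-identical copies that can share reads, and their values are uncertain for that reason.

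Genes of the transfer layer, the aleurone and the embryo-surrounding region, which are endosperm compartments that feed or enclose the embryo, had 13 of 14 members under the mean of the other days in upstream CHG, where 76.8% of all genes were. None was called, and the median was -5.84 points, or 0.804 with libraries scaled to the same mean and -3.70 without day 9. In body CG 5 of 11 measured members were under the mean, where 58.4% of all genes were, and the median was 0.234 points. The basal transfer layer gene betl3 had upstream CG levels of 88.8, 75.7, 88.4 and 88.0% at days 9, 11, 13 and 15, with 535 calls and an interval of 71.9 to 79.1% at day 11. Every other library of the series had between 86.9 and 90.8%, so the day 11 value of betl3 was the lowest of the 11. The body CHG level of ebe2, expressed at the base of the endosperm, was 67.6, 30.2, 44.9 and 46.7%. The long gene dek1, which encodes a calpain needed for aleurone fate, had body CG levels of 82.0, 72.1, 88.1 and 85.4% with 3372 calls at day 11. Its body CHG level was 34.7, 24.2, 39.5 and 38.7%, and day 11 was the lowest of the 11 libraries in both contexts of dek1.

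The 6 listed Polycomb and imprinted genes were mixed. Their median upstream CHG difference was 0.801 points, 2 of 6 were under the mean of the other days, and 1 was called higher. Without day 13 the median was -5.38 points and without day 9 it was 5.79 points, and with libraries scaled it was 8.11 points. The called gene was mez2, an Enhancer-of-zeste homologue that belongs to a Polycomb complex methylating histone H3. Its upstream CHG level was 22.4, 47.9, 31.8 and 34.4% at days 9, 11, 13 and 15, with 303 calls and an interval of 42.3 to 53.5% at day 11. Days 10 and 25 had 46.3 and 50.7%, so the day 11 level of mez2 was within the range of endosperm. Its relative mez3 was lower in upstream CHH, with 6.72, 3.58, 6.41 and 8.13%, the lowest of all 11 libraries. The imprinted gene fie1 was called in no measure.

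Genes of the DNA methylation machinery and its partners had 12 of 14 members under the mean of the other days in upstream CHG, near the 76.8% of all genes. Their median was -5.31 points (-0.497 with libraries scaled), and 1 was called, near the 6.5% of all genes. The called gene was hda101, a histone deacetylase, with 55.9, 38.8, 57.4 and 74.8% at days 9, 11, 13 and 15 and 129 calls at day 11. The body CHG level of mbd111, a methyl-CpG-binding domain protein, was 61.8, 51.9, 63.9 and 64.7%, with 5264 calls and an interval of 50.5 to 53.2% at day 11. Both had their lowest level of the 11 libraries at day 11. None of the 13 measured bodies of this list was called in CG, and the median there was -0.0688 points.

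Lists outside the seed programmes were read against the same background, with 76.8% of all genes under the mean of the other days in upstream CHG and 6.5% called lower. The 9 measured anthocyanin pathway genes were all under that mean, with a median of -13.4 points, or -7.24 with libraries scaled. Flavanone 3-hydroxylase, fht1, was called, with 28.3, 14.0, 34.4 and 29.6% and 114 calls at day 11, but whole seed at 3 days had 14.2%. Its upstream CHH level was 4.69, 1.36, 5.57 and 4.65%, and that of c2, a chalcone synthase gene, was 7.00, 2.42, 6.76 and 6.69%. The body CHH level of a2, which encodes an anthocyanidin synthase, was 9.71, 5.97, 13.0 and 15.4%. In the anthocyanin list, then, genes were called lower in CHG or CHH and none in CG. In body CG 8 of 9 measured members were under the mean of the other days, where 58.4% of all genes were. The median there was -1.03 points.

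Of 9 housekeeping genes 8 were under the mean in upstream CHG, beside 76.8% of all genes, with a median of -10.4 points (-6.08 scaled) and 3 called, beside 6.5% of all genes. The cytosolic glyceraldehyde-3-phosphate dehydrogenase gene gpc3 had 70.1, 56.8, 73.3 and 72.0%, with 796 calls at day 11, where days 7, 10, 20 and 25 had 67.8 to 70.6%. Of 10 photosynthesis genes 8 were under it, near the share of all genes, with a median of -3.99 points (-0.596 scaled, -2.65 without day 13) and 1 called. That gene was pdk1, pyruvate orthophosphate dikinase, with upstream CG levels of 68.6, 48.3, 70.1 and 77.4% and upstream CHG levels of 70.5, 57.0, 69.3 and 72.0%. In both contexts pdk1 had its lowest level of the 11 libraries at day 11. Of the 6 seed maturation genes 4 were under the mean, with a median of -3.64 points and none called. That median was 1.11 points with libraries scaled, 0.396 without day 9 and -5.70 without day 15. In that list vp1, the B3 factor Viviparous1 of seed maturation, was lower in upstream CG, with 48.9, 38.9, 51.8 and 52.8% and 916 calls at day 11. The pair of alcohol dehydrogenase genes lay on both sides of the mean, and neither was called in any measure. In body CG 58.4% of all genes were under the mean. There 2 of 9 housekeeping, 7 of 10 photosynthesis and 2 of 6 seed maturation genes were under it. Their body CG medians were 1.73, -0.356 and 0.674 points, against -0.417 over all genes.

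Among all genes with a symbol, the largest difference in upstream CHG belonged to asn1, an asparagine synthetase gene, with 69.7, 21.7, 55.6 and 51.9% at days 9, 11, 13 and 15 and 184 calls at day 11. Days 7, 20 and 25 had 23.5, 24.6 and 30.5% and the leaf 27.8%, so for asn1 the days 9, 10, 13 and 15 were high and day 11 was not alone. Its upstream CG level was 50.2, 20.5, 45.5 and 39.0%, and its body CHG level 48.2, 40.2, 60.4 and 61.3%. The largest differences in upstream CG rested on few calls. A gene model with the symbol ada2 (GRMZM5G815323), 1 of 2 with that symbol, had 81.3, 26.1, 80.0 and 88.0% with 46 calls at day 11 and 10 to 25 at the other days. Day 25, whole seed at 5 days and the leaf lay under its day 11 value, with 15.1, 22.3 and 1.69%, while days 7, 10 and 20 had 57.9, 53.4 and 82.2%. The gene lac5 had 65.4, 21.4, 85.7 and 80.0% with 28 calls at day 11. The largest in upstream CHH, mbd123, had 53.3, 8.22, 62.5 and 32.3%, and days 7 and 10 had 5.26 and 5.99%, as low as day 11.

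Some genes were higher at day 11. In upstream CHG, ts2 (tasselseed2), a short-chain dehydrogenase gene of sex determination, had 13.5, 38.6, 13.4 and 22.4% at days 9, 11, 13 and 15, with 290 calls at day 11. The body CG level of dhar3 was 10.7, 34.7, 15.8 and 19.2%, and all the other 10 libraries lay at 24.6% or less. The body CG level of dhs2 was 18.0, 36.8, 24.4 and 21.1%, and that of met4 48.8, 65.9, 49.4 and 51.5%, with 1302 calls. In 1 other measure met4 was called lower. In the body CHG of pdi6 the levels were 11.8, 28.7, 14.1 and 19.8%. For dhar3, dhs2, met4 and pdi6 day 11 was the highest of the 11 libraries.

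**Figure D5:**
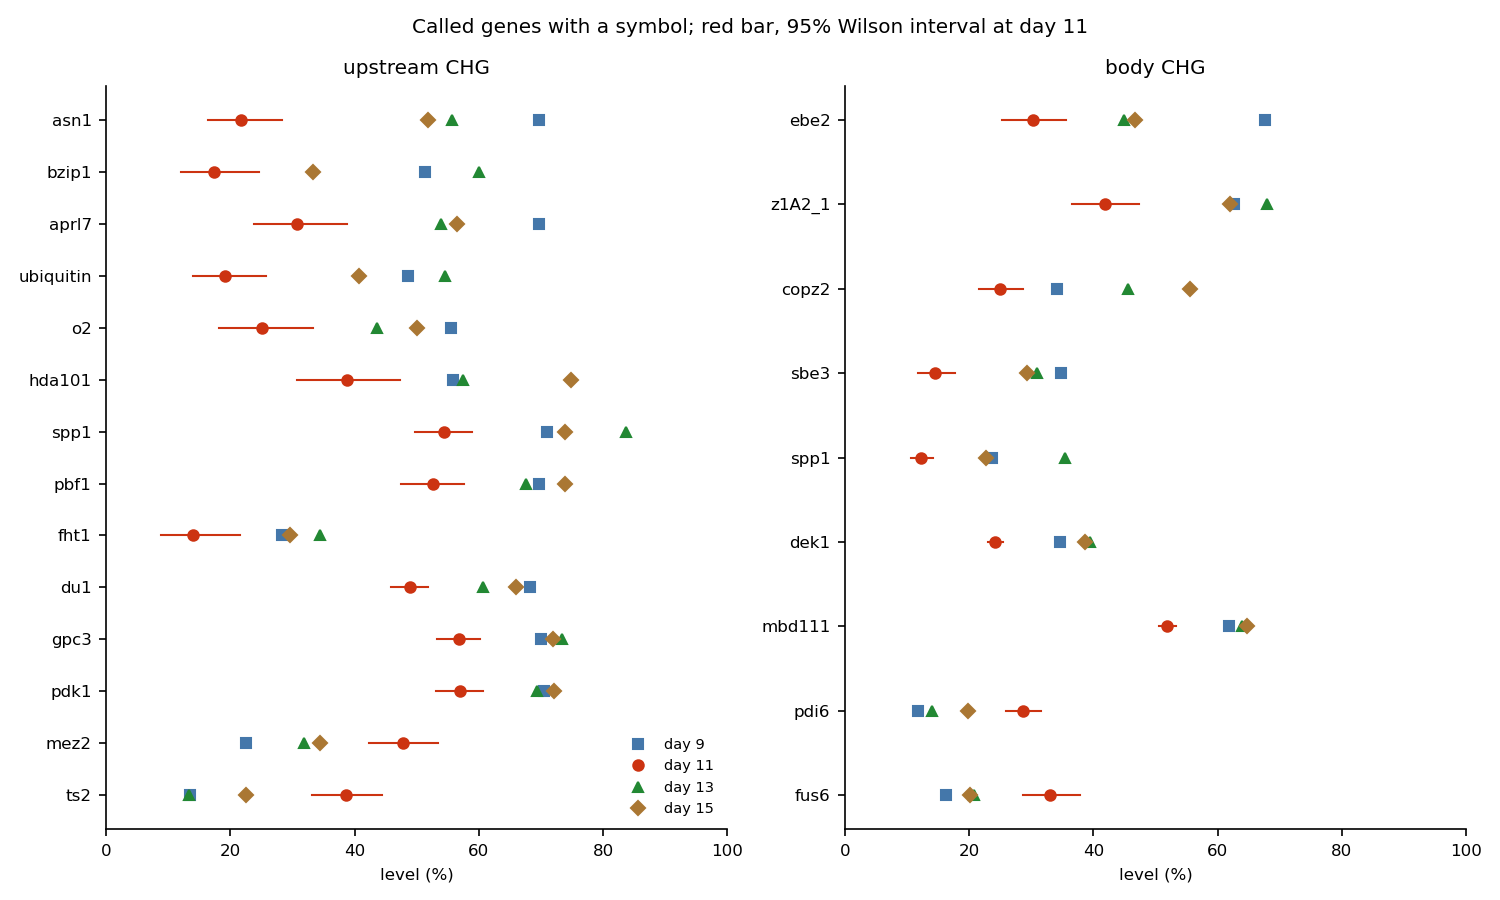
Points give the level (x axis, percent) at days 9, 11, 13 and 15 of the named genes called lower or higher at day 11 in upstream CHG and in body CHG (y axis, gene symbol); red bars are the 95% Wilson interval at day 11. The red interval lies apart from the other points in each row, to the left for o2 (25.0%) and to the right for mez2 (47.9%) and ts2 (38.6%).

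A single gene with a symbol was called lower in at least 4 measures. It was spp1, the sucrose-phosphate phosphatase gene of chromosome 8 (116304892 to 116311147), and it was lower in 5. Its upstream CG levels at days 9, 11, 13 and 15 were 72.1, 59.4, 92.0 and 85.8%. Upstream CHG was 71.0, 54.4, 83.6 and 73.9%, and upstream CHH 11.5, 3.63, 11.8 and 13.2%. These 3 upstream values were the lowest of the 11 libraries. In its body the CG level was 59.4, 47.0, 79.3 and 57.0% and the CHG level 23.6, 12.3, 35.4 and 22.6%, but whole seed at 5 days had 35.2% in CG and 9.36% in CHG and the leaf 8.56% in CHG, under the day 11 values. Body CHH of spp1 was 3.69, 0.770, 0.700 and 0.340% and was not called.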

How the data were processed

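The authors deposited 1 table per library. Per the submitters' processing notes, the tools were Bismark, Bowtie2 and cutadapt. Their versions, the build of the genome and how far an upstream region reaches were not given in the sources used. Per the file headers, each table holds a count of methylated calls and a level in percent per context and region; the percent level was computed by the authors. Dividing the methylated count by the level recovered total calls and gave a whole number, within the 0.005 points of rounding, for 100.0% of the 800474 values where the range spans under 0.1 call. A methylated count of 0 gives no total, so the gene's other contexts served to estimate it for 0.258 to 5.91% of values per measure.

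The 39475 nuclear gene models were used, and per measure a gene needed 10 calls or more in every one of the 11 libraries. No library pair held identical values. Each difference is the day 11 level minus the mean of days 9, 13 and 15, and no test was run, since day 11 is 1 library chosen by this contrast. Called genes follow the size and Wilson interval rule given in the text. Symbols came from RefSeq assembly Zm-B73-REFERENCE-NAM-5.0, used for names only: 18775 gene models matched and 1075 had a symbol. Genes were named per measure as the 4 largest called differences below and the 3 above with a symbol, up to 2 called members per list (or the largest when none was called), and those lower in at least 4 measures; those described are a part of these, picked after their values were seen. The members and the 10 lists were chosen with earlier results of these data known. Alternatives were other call minimums, size limits, scalings, summaries and comparators. Python 3.11.15, numpy 2.4.6, pandas 2.3.3 and matplotlib 3.10.9 were used.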

Additional observations from a re-analysis of the deposited data

How the results depend on the processing

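Day 11 is 1 library, so no spread within its stage is known, and library composition, ear and stage cannot be told apart. No paired analysis was possible because each stage has 1 library and the comparison comes from no test. The minimum of calls (5 or 30 in place of 10, or 10 in the 4 libraries compared) moved no mean level by more than the SD over days 9, 13 and 15 and no count by over 1.5 times. Genes with few calls are reached only by large differences. Leaving out 1 comparator cannot move a mean difference by as much as 1 SD by construction and is no sign of stability. None of the called genes named in the text changed sign under any setting run on it.

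Mean differences moved as follows. As the median over genes they were -0.385 points in body CG, -0.313 in body CHG, 0.0828 in body CHH and -5.24 in upstream CG. As pooled calls they were -7.26 in body CG, -7.86 in body CHG, -0.206 in body CHH, -6.97 in upstream CG and -7.66 in upstream CHG. With values of 0 methylated calls left out they were -2.80 in body CHG and -0.177 in body CHH.

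Counts of genes called lower and higher at 20 points (5 in CHH) were 252 and 62 in body CG, 170 and 8 in body CHG, 78 and 26 in body CHH, 659 and 75 in upstream CG, 519 and 28 in upstream CHG, and 698 and 112 in upstream CHH. With no interval required they were 2424 and 816, 2503 and 273, 925 and 561, 5855 and 1136, 7125 and 793, and 5185 and 1632 in the same order. Scaling to the same mean gave 585 and 470 in body CG, 340 and 238 in body CHG, 1114 and 730 in upstream CG, 680 and 571 in upstream CHG, and 696 and 812 in upstream CHH. Subtracting library medians gave 678 and 905 in upstream CG, 324 and 573 in upstream CHG, and 330 higher in upstream CHH. Body counts moved less under it, to 948 and 269 in CG, 1069 and 26 in CHG, and 237 and 72 in CHH. Both settings remove part of the difference that chose the library. With 1 comparator left out, the lower genes numbered 1371 to 1996 in body CG, 1396 to 1829 in body CHG, 286 to 511 in body CHH, 2916 to 4040 in upstream CG, 3242 to 4237 in upstream CHG and 1652 to 3120 in upstream CHH, and the higher genes 407 to 473, 50 to 70, 120 to 139, 391 to 436, 109 to 218 and 385 to 611. Each of these ranges lies above the count with all 3 comparators.

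Class means moved where levels are low. As medians over genes, bodies with low leaf CG differed by 0.162 points in CG, 0.131 in CHG and 0.165 in CHH, upstream regions with low leaf CG by 0.106, -0.212 and 0.0532, bodies with CG alone by -0.0838 in CHG and 0.103 in CHH, and such upstream regions by -0.319 in CHG and 0.0903 in CHH. Body CHH medians were -0.0192 in heavy, -0.0467 in endosperm-lowered and -0.0169 in endosperm-kept genes, and the body CG median of endosperm-lowered genes was -7.33. With classes set from whole seed, low bodies differed by 0.0828 in CG, low upstream regions by -0.179 in CG and -0.493 in CHG, and CG-only upstream regions by -0.502 in CHG.

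List medians in upstream CHG under scaling to the same mean were 3.28 points for starch synthesis, -2.15 for storage proteins, 0.804 for the transfer layer, 8.11 for Polycomb, -0.497 for DNA methylation, -0.596 for photosynthesis, -6.08 for housekeeping, -7.24 for anthocyanin and 1.11 for seed maturation. With 1 comparator left out they ran from -2.96 to -0.956 for starch synthesis, where leaving out day 15 gave -0.956, from -7.83 to -6.56 for storage proteins, from -7.72 to -3.70 for the transfer layer, from -5.38 to 5.79 for Polycomb, from -7.03 to -3.99 for DNA methylation, from -3.60 to -2.65 for photosynthesis, from -11.5 to -8.72 for housekeeping, from -13.5 to -10.7 for anthocyanin, from -5.70 to 0.396 for seed maturation and from 2.01 to 9.28 for alcohol dehydrogenase.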

Other observations

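Some genes with no symbol had large differences, and their values at the days outside the comparison were mixed. The 4 described here were chosen after their values were seen. Upstream of GRMZM2G151459 (chromosome 5, 161046451 to 161047320) the CG level was 12.0% at day 11, with 25 calls, and 95, 96.9 and 100% at days 9, 13 and 15, while days 7 and 20 had 44.0 and 33.3%. Upstream of GRMZM2G425236 the CG level was 16.8% at day 11, with 310 calls, and 86.2, 100 and 61.9% at days 9, 13 and 15. There the 3 comparators were the ones that stood apart, since days 7, 10, 20 and 25 had 25.0, 30.2, 2.21 and 22.4% and the leaf 14.6%.

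Genes higher at day 11 included regions where the endosperm libraries fell into high and low values that did not follow the day. Upstream of GRMZM2G032699 the CG level was 63.7% at day 11, with 273 calls, and 61.3, 55.4 and 64.0% at days 7, 10 and 20. It was 18.5, 12.0, 7.96 and 13.2% at days 9, 13, 15 and 25, and 33.1% in the leaf. Upstream of GRMZM2G106950 it was 86.8, 67.9 and 73.7% at days 7, 10 and 11 and 11.3 to 36.6% at days 9, 13, 15, 20 and 25.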
